A study of Mus musculus with 147 samples.

Results

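The genes described here are 35 mouse genes of glucose transport, glycolysis and the use of pyruvate: glucose transporters (Slc2a1, Slc2a3, Slc2a6), hexokinases (Hk1, Hk2, Hk3), phosphofructokinases (Pfkl, Pfkm, Pfkp) and the bifunctional enzymes that regulate them (Pfkfb2, Pfkfb3, Pfkfb4), the other enzymes of glycolysis (Gpi1, Aldoa, Aldoc, Tpi1, Gapdh, Pgk1, Pgam1, Eno1, Pkm), lactate dehydrogenases (Ldha, Ldhb), lactate carriers (Slc16a1, Slc16a3), mitochondrial pyruvate carriers (Mpc1, Mpc2), pyruvate dehydrogenase (PDH) kinases (Pdk1, Pdk2, Pdk3), a PDH phosphatase subunit (Pdp1) and PDH complex proteins (Pdha1, Pdhb, Dlat, Pdhx). They were taken from a written list of the pathway and matched by Ensembl identifier, without its version, to mouse symbols. Each of the 35 matched 1 of the 50686 identifiers in the count tables. RNA of sorted mouse macrophages and monocytes had been sequenced as 147 libraries, which belong to 2 experiments. For refeeding (110 libraries), the refed mice were fasted for 12 h and then given chow for 2 h, and the fasted mice had the 12 h fast only. It covered 7 populations, namely adipose tissue macrophages, blood monocytes, microglia and colonic macrophages (9 refed and 8 fasted libraries each), islet macrophages and Kupffer cells, the macrophages of the liver (7 and 6), and peritoneal macrophages (8 and 8). In the diet experiment (37 libraries), mice received either high-fat food over 8 weeks plus streptozotocin (STZ, which kills pancreatic beta cells) at week 4, the same 8 weeks of high-fat food alone, or a normal diet. These 3 groups held 3, 4 and 4 libraries of islet macrophages, 5, 4 and 5 of peritoneal macrophages and 4, 4 and 4 of microglia. The series' design text describes STZ as having ablated the islets and raised blood glucose, although islet macrophages were also collected from these mice, and there was no STZ group on normal diet. The sources used here give no strain, genotype, age or sex, and no sort gate for each population.

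Glucose enters macrophages through facilitative transporters of the Slc2a family, is trapped by hexokinase and is split by glycolysis into pyruvate, with phosphofructokinase as the main control point. Pyruvate is either reduced to lactate, which leaves the cell with a proton through monocarboxylate transporters, or taken into mitochondria and turned into acetyl-CoA by the PDH complex, which PDH kinases switch off and PDH phosphatases switch on. Macrophages stimulated by bacterial products are known for high glucose uptake and lactate output, and in many tissues some PDH kinases are raised by fasting and lowered by feeding.

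Libraries held 7.92 to 27.3 M counts (M, mega; median 16.1 M) in the refeeding experiment and 11.3 to 34.5 M (median 15.7 M) in the diet experiment. Of 443 possible pairs within a group, 0 were identical in their counts. Libraries started from 400 cells, except the peritoneal (100000 cells) and microglia (5000 cells) libraries of the diet experiment. In bulk libraries of this kind, fewer cells of a type and less RNA per cell cannot be told apart. Summed marker genes of microglia, Kupffer cells, peritoneal macrophages and monocytes were highest in the population of that name, and those of adipose tissue macrophages in adipose tissue macrophages. The islet macrophage markers were highest in islet macrophages but were also high in colonic, adipose and Kupffer libraries, and the colonic markers were highest in microglia, so these lists check those labels less well. Colonic libraries carried RNA of other cells. All 7 B and plasma cell markers had counts there and summed to 14.7 to 102472 CPM (counts per mega-count of the library) in refed mice and 15.9 to 59433 CPM in fasted mice, and all 6 pancreatic acinar markers summed to 12.8 to 15189 CPM and 769 to 145471 CPM. The part of these cells in the colonic values was not tested. Fasted peritoneal replicate 1 was the highest of its group in 11 of the 35 genes, and normal-diet peritoneal replicate 3 in 18. Where leaving them out moved a fold change or sum described here by over 1.5 times or changed a call, the value without them is given too. Descriptions of 4 refed libraries (islet 1_2 and 3, Kupffer 1 and 2) name fasting only, against their titles, and they were kept as refed. Each of the islet libraries named 1_2 and 5_6 has a pair of mouse numbers, so it may be a pool.

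Promoter sequences are shown for 4 genes on which the results turn: Slc2a1 and Pdk3, the genes that changed with refeeding, and Ldha and Ldhb, whose proportion set microglia apart. Each window runs from 250 bases before to 50 bases after the transcription start in RefSeq (build GRCm38.p6), 5′ to 3′ on the gene's strand. The windows are chr4:119108495-119108794 (+) for Slc2a1, chrX:93832101-93832400 (−) for Pdk3, chr7:46846832-46847131 (+) for Ldha and chr6:142507908-142508207 (−) for Ldhb. Capitals mark ACGTG on either strand, a form of the core (A or G, then CGTG) of the site bound by hypoxia-inducible factors. The form GCGTG was not marked or counted.
Slc2a1: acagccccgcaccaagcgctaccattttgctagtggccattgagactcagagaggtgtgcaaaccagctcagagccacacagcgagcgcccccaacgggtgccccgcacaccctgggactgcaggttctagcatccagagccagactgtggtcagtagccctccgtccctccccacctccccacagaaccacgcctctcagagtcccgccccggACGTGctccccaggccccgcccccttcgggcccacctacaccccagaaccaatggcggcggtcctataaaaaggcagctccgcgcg
Pdk3: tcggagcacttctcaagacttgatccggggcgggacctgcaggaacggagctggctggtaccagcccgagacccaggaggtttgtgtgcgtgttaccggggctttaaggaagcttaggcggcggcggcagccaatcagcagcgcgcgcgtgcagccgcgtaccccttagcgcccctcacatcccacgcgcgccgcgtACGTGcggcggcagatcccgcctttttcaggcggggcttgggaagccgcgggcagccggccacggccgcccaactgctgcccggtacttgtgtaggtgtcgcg
Ldha: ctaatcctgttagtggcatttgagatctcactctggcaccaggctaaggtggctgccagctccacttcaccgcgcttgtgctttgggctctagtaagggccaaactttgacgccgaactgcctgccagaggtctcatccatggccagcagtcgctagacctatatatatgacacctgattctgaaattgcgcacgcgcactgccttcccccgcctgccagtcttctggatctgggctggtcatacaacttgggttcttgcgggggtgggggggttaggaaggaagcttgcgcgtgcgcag
Ldhb: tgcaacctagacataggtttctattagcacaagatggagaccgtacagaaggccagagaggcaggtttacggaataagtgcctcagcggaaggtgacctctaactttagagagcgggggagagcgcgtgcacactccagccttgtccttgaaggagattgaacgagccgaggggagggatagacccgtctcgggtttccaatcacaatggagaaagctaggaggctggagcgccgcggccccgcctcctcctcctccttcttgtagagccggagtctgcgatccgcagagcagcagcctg
ACGTG was present once each in the Slc2a1 and Pdk3 windows, and these letters were not in the Ldha and Ldhb windows. Both the Ldha and the Ldhb window hold GCGTG, so they do not lack the core. Of the 33 genes with a window (Slc2a3 and Pdp1 had no entry), 16 (48.5%) held ACGTG, against 6447 of 32851 promoters of the same length (19.6%). The E-box CACGTG, which contains ACGTG, was in 4 of the 33 (12.1%) and in 7.15% of all promoters. The GC box GGGCGG was in 24 of the 33 (72.7%) and in 35.7% of all promoters. Both strands were searched for each motif, and a match is a description of letters, not of binding. Each member gave only the window nearest the start of its principal transcript, while the background held every window, and GC content was not matched. The shares are therefore not of like sets.

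To describe the steps by population, fasted libraries were compared between the 7 populations. The titles repeat the same replicate numbers in different populations, so the same mouse may have given libraries of several populations. The fits between populations had no replicate term and treated these libraries as independent. Levels are RPKM (CPM per kilobase of the principal transcript, as mean ± SD over libraries), and a level was called higher or lower when the population differed from the mean of the other 6 (edgeR's quasi-likelihood test, Benjamini-Hochberg adjusted over 16114 genes, below 0.05). Peritoneal macrophages had the most genes called higher: 11 of the 35 (31.4%) were higher and 5 (14.3%) lower, where 12.4% of all genes were higher and 8.57% lower. Microglia had the most called lower: 10 (28.6%) were lower and 7 (20%) higher, where 12.3% of all genes were lower and 15.4% higher. In adipose tissue macrophages 7 (20%) were lower and 0 higher, against 3.43% and 8.42% of all genes. In monocytes 6 (17.1%) were higher and 1 (2.86%) lower, against 10.4% and 8.66%. Colonic macrophages had 7 (20%) higher and 3 (8.57%) lower, against 15.5% and 2.66%. Islet macrophages had 2 higher and 2 lower (5.71% each), against 8.84% and 5.01%, and Kupffer cells had 2 higher (5.71%) and 0 lower, against 10.4% and 2.4%. In refed libraries Kupffer cells had 6 members called in either direction, but the share of all genes called there was not counted. The median difference over the 35 genes was 0.51 (log2) in peritoneal macrophages, where that of all genes was 0.075, and −0.32 in adipose tissue macrophages, where that of all genes was 0.047. Of the 63 calls, 51 had the same direction and call in the refed libraries, which were not used for them, 10 the same direction without the call, and 2 the opposite direction. The 10 were Slc2a1 and Pdk1 in peritoneal macrophages, Pfkl in microglia and in colonic and islet macrophages, Hk2, Slc16a3 and Pdk3 in colonic macrophages, Slc16a3 in adipose tissue macrophages and Aldoa in Kupffer cells, and the 2 were Aldoc in adipose tissue macrophages and microglia. How many calls of all genes held in refed libraries was not counted, so the 51 calls are not shown to be particular to these genes.

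**Figure D1:**
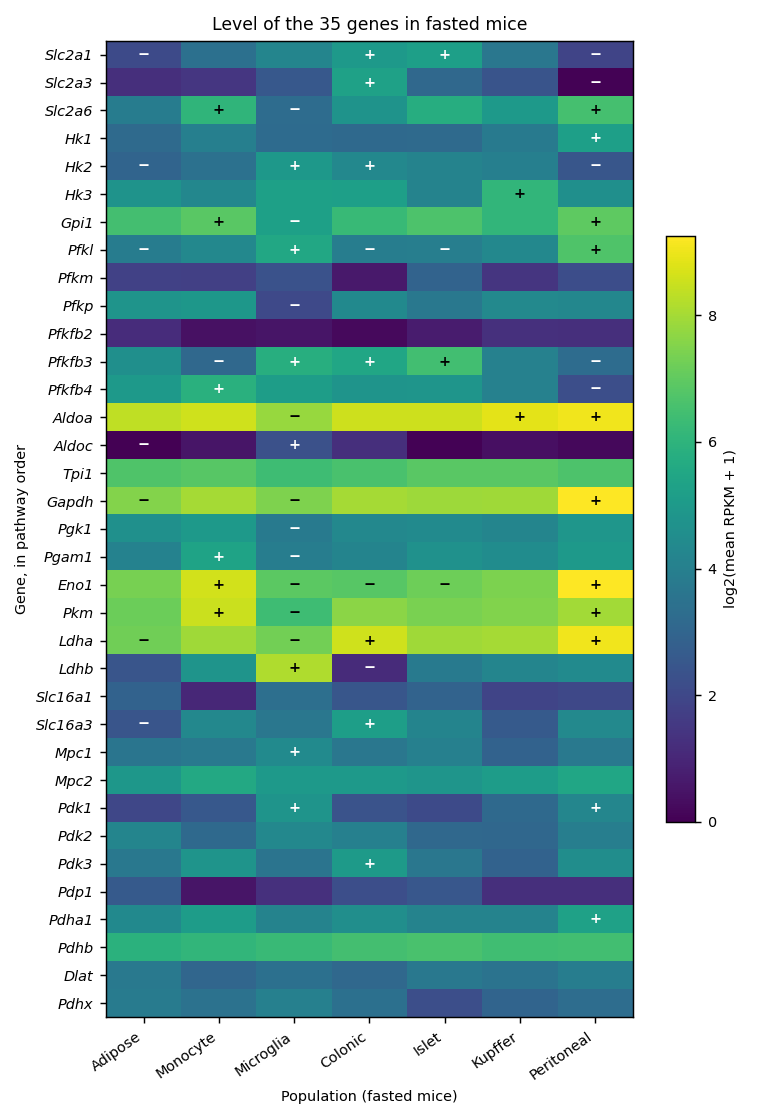
Mean level of the 35 genes in fasted mice, as log2(RPKM + 1), in the 7 populations (columns), with genes (rows) in pathway order. A plus or minus marks a level called higher or lower than the mean of the other 6 populations; peritoneal macrophages carry 11 plus marks and microglia 10 minus marks.

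Each of the 3 transporters had its highest mean in a different population, but none differed there from the next population by edgeR's test. The adjusted p was 0.2988 between colonic and islet macrophages for Slc2a3 and 0.7632 between peritoneal macrophages and monocytes for Slc2a6. Slc2a1 (Glut1, the transporter for basal glucose uptake, chr4:119108711-119137983) averaged 36.7 ± 25.4 RPKM in islet macrophages (n = 6) and 31.2 ± 11.9 RPKM in colonic macrophages (n = 8), and the test between them did not pass (adjusted p = 0.8822). It was lowest in adipose tissue macrophages, at 3.18 ± 2.34 RPKM, and in peritoneal macrophages, whose 8 libraries ran from 1.49 to 4.47 RPKM with a median of 2.19. Both low levels and both high levels were called against the other populations, but among refed libraries the peritoneal level of Slc2a1 was not (log2 difference −0.80, adjusted p = 0.1682). Islet libraries carried endocrine cell markers (all 6 with counts, 898 to 3064 CPM summed in fasted mice, at most 89.4 CPM in the other populations), whose part in their Slc2a1 level was not tested. Slc2a3 (Glut3, a high-affinity transporter) averaged 38.5 ± 25.7 RPKM in colonic macrophages, with a lowest library of 12.2, a median of 31.7 and a highest of 92.7 RPKM, a difference of 4.67 ± 0.77 (log2 ± SE, adjusted p = 5.1e-06) from the other 6. In peritoneal macrophages Slc2a3 was called lower and ran from 0 to 0.179 RPKM, and no fold is given for such counts. Slc2a6 (Glut6) averaged 90.7 ± 21.4 RPKM in peritoneal macrophages and 65.3 ± 20.9 RPKM in monocytes, both called higher, and 8.54 ± 7.83 RPKM in microglia, called lower. As a share of the summed RPKM of the 3 transporters in each library, Slc2a6 made up 97 ± 1.31% in peritoneal macrophages and 84.6 ± 6.84% in monocytes. Slc2a1 made up 54.9 ± 25.2% in microglia, and Slc2a3 made up 38.9 ± 13.6% in colonic macrophages and at most 17.4% on average elsewhere. These are shares of RNA. Neither glucose uptake nor the place of each transporter in the cell was measured, so they do not show which transporter takes up glucose.

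The hexokinases, which phosphorylate glucose and hold it in the cell, also had their highest means in different populations. By edgeR's test none differed there from the next population (adjusted p = 0.2073 for Hk2 and 0.1441 for Hk3, with Hk1 below). Hk1 averaged 36 ± 6.68 RPKM in peritoneal macrophages, 1.88 ± 0.30 (log2) above the other 6 (adjusted p = 2.6e-06). All 8 peritoneal libraries lay between 27.7 and 47.6 RPKM, and the next population, monocytes, averaged 14.8 ± 4.52 RPKM (adjusted p = 0.05658 between them). Hk2, the hexokinase induced by insulin and hypoxia in many tissues, was highest in microglia, at 29.9 ± 13.4 RPKM, called higher with colonic macrophages (19.2 ± 8.79 RPKM), and was called lower in adipose tissue macrophages (6.96 ± 5.53 RPKM) and peritoneal macrophages (4.59 ± 1.38 RPKM). Hk3, found mostly in myeloid cells, was highest in Kupffer cells, at 67.2 ± 27.8 RPKM, 1.54 ± 0.33 (log2) above the other 6 (adjusted p = 0.00047). Fasted Kupffer libraries carried all 6 endothelial markers, which summed to 1784 to 4151 CPM (at most 330.8 CPM in the other fasted populations), and all 5 hepatocyte markers, which summed to 248 to 886.9 CPM; their part in the Kupffer levels was not tested. Hk1 thus made up 56.1 ± 8.27% of the hexokinase RPKM in peritoneal macrophages, Hk2 47.7 ± 27% in islet macrophages and Hk3 69.9 ± 6.69% in Kupffer cells. The Hk1 share depends on the transcript length used and was 39.9% with the length of all merged exons.

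At the phosphofructokinase step, the liver-type subunit Pfkl was called higher in peritoneal macrophages and microglia. Pfkl averaged 102.7 ± 25 RPKM in peritoneal macrophages and 45.4 ± 19.4 RPKM in microglia, and at most 19 RPKM in the other 5 populations. The difference between peritoneal macrophages and microglia and that between microglia and Kupffer cells, the next in order, both passed the test (adjusted p = 0.005851 and 0.0061). Among refed libraries the microglia level of Pfkl was not called against the other 6 (log2 difference 0.43, adjusted p = 0.1659). Pfkl made up 85.2 ± 14.4% of the phosphofructokinase RPKM in microglia and 81.9 ± 5.46% in peritoneal macrophages. The platelet-type subunit Pfkp averaged 12.1 to 28.8 RPKM in 6 populations and 3.12 ± 5.81 RPKM in microglia, called lower, and 1 microglia library at 16.8 RPKM stood apart from the other 7. The muscle-type subunit Pfkm was at most 6.76 RPKM on average and was called in 0 populations. The Pfkfb enzymes, which make and remove an activator of phosphofructokinase, differed more widely. Pfkfb3, whose kinase activity promotes glycolysis, averaged 87 ± 27.4 RPKM in islet macrophages, 54.6 ± 22.3 RPKM in microglia and 44 ± 18.7 RPKM in colonic macrophages, all called higher, and 8.64 ± 3.95 RPKM in peritoneal macrophages and 7.84 ± 5.33 RPKM in monocytes, both called lower. Pfkfb4 was highest where Pfkfb3 was lowest: it averaged 57.5 ± 18.3 RPKM in monocytes, 1.62 ± 0.29 (log2) above the other 6 (adjusted p = 2.7e-05), and made up 86.6 ± 9.49% of the RPKM of the 3 Pfkfb genes there. In peritoneal macrophages Pfkfb4 averaged 3.65 ± 4.14 RPKM and was called lower. Pfkfb2 was at most 1.44 RPKM on average.

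**Figure D2:**
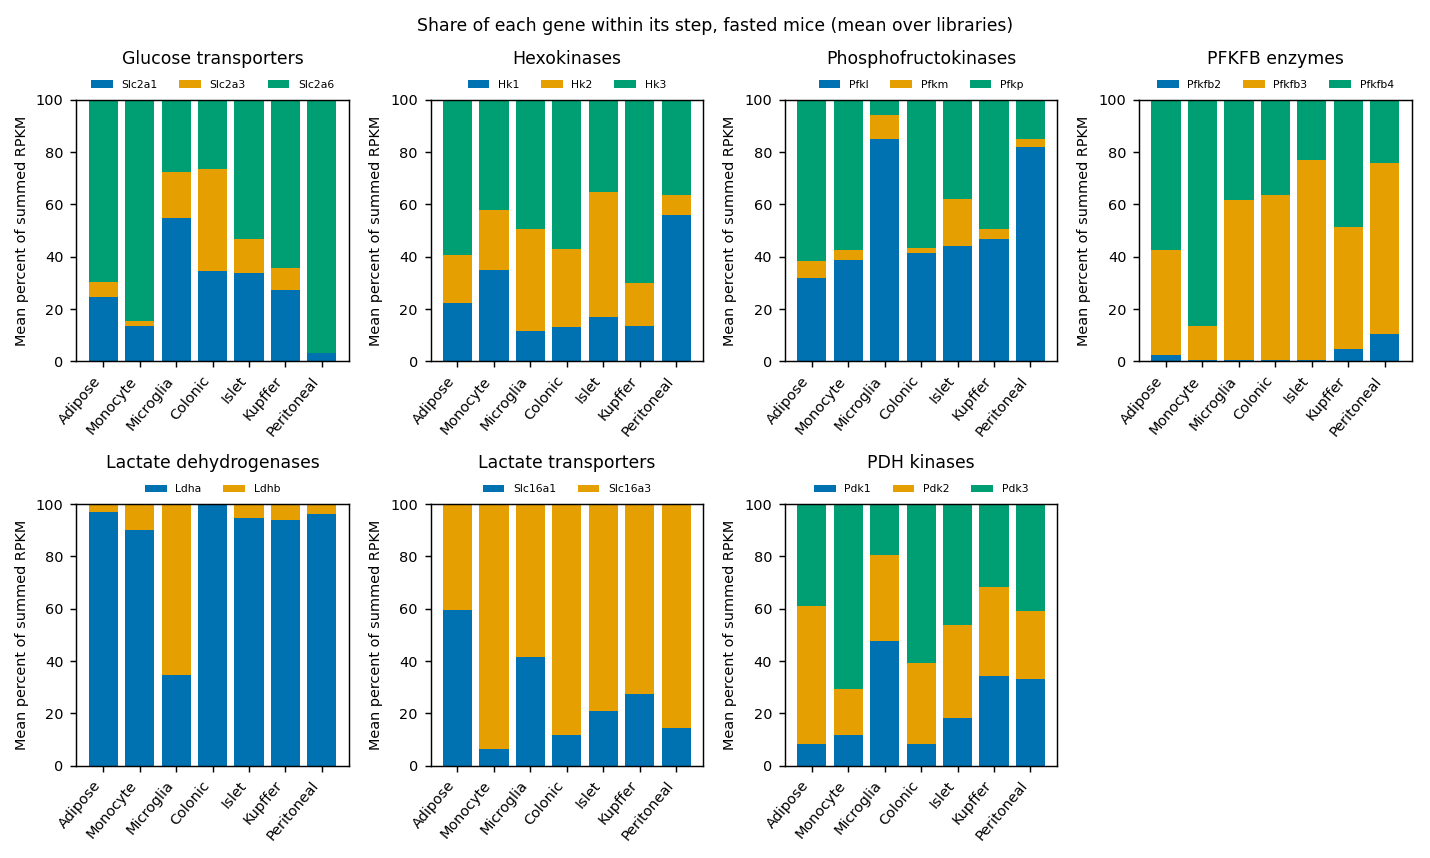
Mean share (percent of summed RPKM, stacked to 100) of each family member in fasted mice, by population, for 7 families. Ldhb makes up 65.3% of lactate dehydrogenase in microglia, Slc2a6 97% of the transporters in peritoneal macrophages and Pfkfb4 86.6% of the Pfkfb genes in monocytes.

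Summed over the 12 enzymes from phosphoglucose isomerase to pyruvate kinase, the level was highest in peritoneal macrophages and lowest in microglia, while single enzymes differed in their order. The sum was 2394 ± 385 RPKM in peritoneal macrophages, 1758 ± 114.9 in monocytes, 1331 ± 347 in Kupffer cells, 1217 ± 74.7 in islet macrophages, 1181 ± 86.4 in colonic macrophages, 1094 ± 322 in adipose tissue macrophages and 806 ± 190 in microglia. Without fasted replicate 1 the peritoneal value was 2260 ± 61.2 RPKM (n = 7). In peritoneal macrophages 6 of these 12 genes were called higher (Gpi1, Pfkl, Aldoa, Gapdh, Eno1, Pkm) and 0 lower. Of all genes, 12.4% were higher there and 8.57% lower. In microglia 8 were called lower and 2 higher (Pfkl and Aldoc), where 12.3% of all genes were lower and 15.4% higher. Neither Pfkl nor Aldoc was called in refed microglia, and the direction of Aldoc was opposite there. Without a count filter the edgeR calls of Pgk1 and Pgam1 in microglia ended (adjusted p = 0.2363 and 0.2421). Pfkp, Pgk1, Pgam1 and Pkm had their highest mean in monocytes, Pfkm and Tpi1 in islet macrophages and Aldoc in microglia. Gapdh, the enzyme of the oxidative step (chr6:125161715-125166467), averaged 609 ± 96.6 RPKM in peritoneal macrophages and 258 ± 23.8 RPKM in monocytes, the next in order (adjusted p = 2.9e-09). The peritoneal libraries ran from 515.9 to 828.7 RPKM and did not overlap those of any other population, the highest of which was 379.8 RPKM. The share of all genes of which this held was not counted. Eno1 (enolase) averaged 599 ± 141 RPKM in peritoneal macrophages and 393 ± 35.7 RPKM in monocytes, and both were called higher. Pkm (pyruvate kinase of muscle and immune cells) led in monocytes, at 366 ± 48.6 RPKM, 1.18 ± 0.14 (log2) above the other 6, and averaged 247 ± 73.5 RPKM in peritoneal macrophages, a call that ended without fasted replicate 1 (adjusted p = 0.05275). Exons of 13 of the 35 genes, among them Slc2a1, Hk1 and Gapdh, overlap another gene's exons, and the sources used here do not say whether counting used strand, so their reads may be shared. Tpi1 (triose phosphate isomerase) was called in 0 populations, with means between 82.9 and 118.4 RPKM. Gapdh has 70 near-identical gene copies in the annotation, 68 of them with counts, which together held 1.43% of the counts of Gapdh. The other 7 members with such copies were Gpi1, Pgk1, Eno1, Pkm, Ldha, Ldhb and Pdhb, whose copies held at most 0.216%.

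At the fate of pyruvate, microglia stood apart. Ldhb, the lactate dehydrogenase subunit typical of heart and brain (chr6:142490249-142507957), ran from 202 to 370 RPKM in the 8 fasted microglia libraries, with a median of 279.8 RPKM. In the other 6 populations it averaged between 1.23 and 26.8 RPKM. The difference from their mean was 4.93 ± 0.50 (log2, adjusted p = 4.1e-11), and that from monocytes, the next in order, also passed the test (adjusted p = 0.002725). Ldha, the subunit typical of muscle and of lactate-producing cells, was called lower in microglia (156 ± 80.6 RPKM) and in adipose tissue macrophages (151.3 ± 35.2 RPKM). By edgeR's test its level did not differ between them (adjusted p = 0.9969), so low Ldha was not particular to microglia. Ldha was called higher in peritoneal macrophages (536 ± 116.6 RPKM) and colonic macrophages (385 ± 108.6 RPKM). Ldhb therefore made up 65.3 ± 11% of the lactate dehydrogenase RPKM in fasted microglia and at most 9.75% on average in the other populations. The value was 64.6 ± 10% in refed microglia, and in the diet experiment it was 73 ± 3.69% with high-fat diet and STZ, 76.1 ± 3.17% with high-fat diet and 72.3 ± 4.13% on normal diet. The microglia libraries of both experiments thus gave the same order of the subunits. Neuron and glia markers summed to 27.4 to 613 CPM in fasted microglia (5 of 6 with counts, Gfap at 0) and their part in the Ldhb level was not tested. Ldhb was lowest in colonic macrophages, at 1.23 ± 1.63 RPKM, called lower. Slc16a3 (Mct4, the lactate exporter of glycolytic cells) was called higher in colonic macrophages, at 35.7 ± 32.9 RPKM, and lower in adipose tissue macrophages, at 4.43 ± 3.92 RPKM, whereas Slc16a1 (Mct1) was called in 0 populations.

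At the entry into mitochondria, Mpc1, a subunit of the pyruvate carrier, was called higher in microglia (20.4 ± 6.62 RPKM), and its partner Mpc2 was called in 0 populations. The Mpc1 call ended in the edgeR fit without a count filter (adjusted p = 0.5654). Among the PDH kinases, Pdk1 was called higher in microglia (26.9 ± 11.9 RPKM) and peritoneal macrophages (18 ± 4.92 RPKM), and Pdk3 in colonic macrophages (32.1 ± 12.6 RPKM). Among refed libraries neither the peritoneal Pdk1 level (adjusted p = 0.2182) nor the colonic Pdk3 level (adjusted p = 0.2136) was called. Pdk2 was called in 0 populations. Pdk1 made up 47.5 ± 11.9% of the RPKM of these 3 kinases in microglia and Pdk3 70.7 ± 21.2% in monocytes. Of the PDH complex, Pdha1, the alpha subunit of its first enzyme, was called higher in peritoneal macrophages (38.7 ± 5.56 RPKM), and Pdhb, Dlat and Pdhx were called in 0 populations, as was the phosphatase subunit Pdp1.

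To ask whether refeeding moved these genes, refed libraries were compared with fasted ones within each population, with the cohort as a term. In peritoneal macrophages Slc2a1 rose and Pdk3 fell; 33 of the 35 genes could be tested there, Slc2a3 and Aldoc having too few counts. Of all 11331 genes, 37 (0.327%) were called higher and 12 (0.106%) lower, 0.432% in either direction. Slc2a1 had 13.8 CPM in the lowest refed library, a median of 31 and 63 CPM in the highest, against 4.69, 6.95 and 14.5 CPM in fasted libraries. The groups overlapped in 1 refed library, which lay below the highest fasted one. The means were 33.8 ± 15.3 CPM in refed and 8.64 ± 3.66 CPM in fasted mice (n = 8 each), a log2 fold change of 1.89 ± 0.32, or 3.7-fold (edgeR's quasi-likelihood test, adjusted p = 0.01855). Pdk3, the PDH kinase least sensitive to pyruvate (chrX:93764607-93832201), ran from 15.2 to 31.6 CPM with a median of 19.5 in refed libraries, against 36.3 to 74.6 CPM with a median of 42.1 in fasted libraries. The groups did not overlap, and Pdk3 was the 1 of the 33 genes (3.03%) of which this held, against 0.327% of all genes. Its log2 fold change was −1.18 ± 0.22, a fasted level 2.27-fold above the refed one (adjusted p = 0.02352). Within cohorts 1, 2, 3 and 4 the refed minus fasted difference of mean log2(CPM + 1) was 1.70, 2.34, 1.31 and 2.00 for Slc2a1 and −0.87, −1.12, −1.48 and −1.12 for Pdk3, the same direction in each. Both calls ended without refed replicate 4, the 1 refed library of cohort 2, with adjusted p of 0.1123 for Slc2a1 and 0.1056 for Pdk3, while the log2 fold changes were 1.76 and −1.19. With the replicate number as a block in place of the cohort neither was called (adjusted p = 0.1631 each), nor was any other gene. Without each of fasted replicates 3, 4 and 7 and refed replicates 2, 5, 8 and 9 the call of Pdk3 also ended, with adjusted p between 0.05105 and 0.0813.

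**Figure D3:**
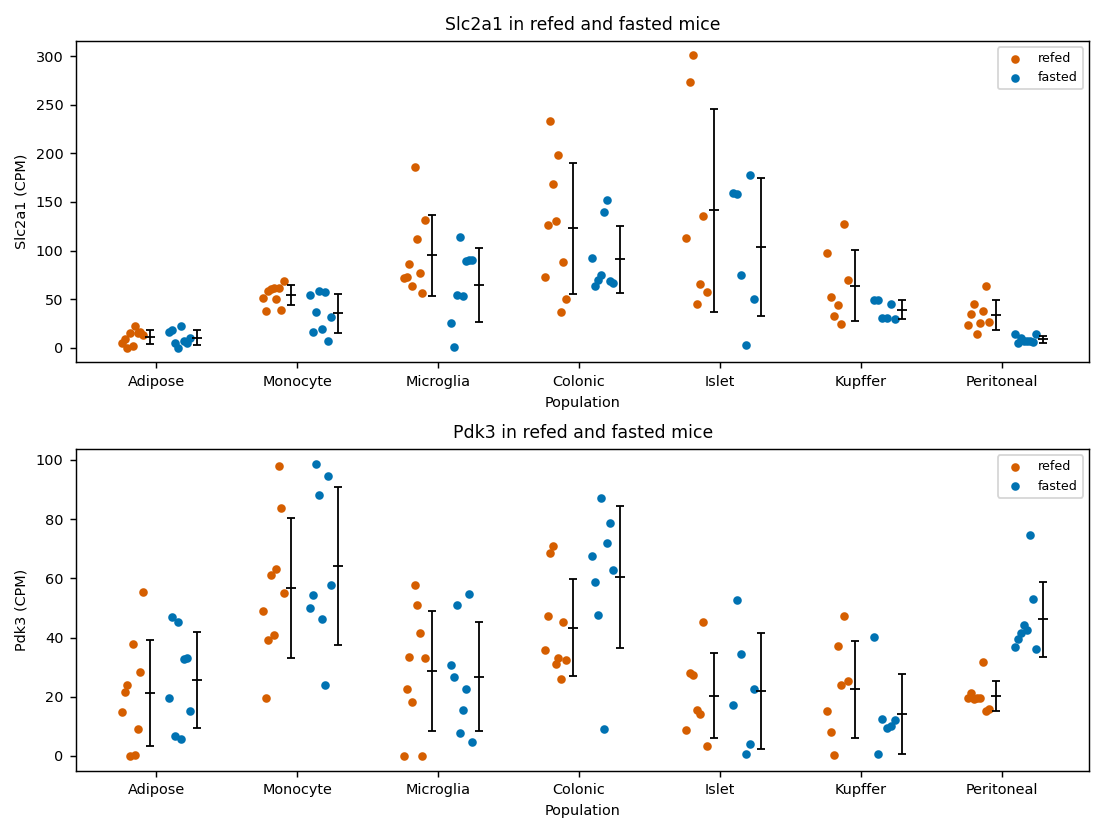
Slc2a1 and Pdk3 levels (CPM) per library, refed left of fasted in each of the 7 populations, with the mean and SD. In peritoneal macrophages Slc2a1 lies between 13.8 and 63 CPM in refed and 4.69 and 14.5 CPM in fasted mice, and Pdk3 between 15.2 and 31.6 CPM in refed and 36.3 and 74.6 CPM in fasted mice.

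Other genes of the pathway had fold changes in peritoneal macrophages that did not pass the adjusted test. The log2 fold change was positive for 25 of the 33 genes (75.8%, against 49.6% of all genes), with a median of 0.19 (all genes, −0.004), and 10 of the 33 had an unadjusted p below 0.05, where 11% of all genes did. Among genes of uptake and glycolysis, Hk2 averaged 49.3 ± 32.1 CPM in refed and 24.9 ± 7.51 CPM in fasted mice (log2 fold change 0.98 ± 0.31, adjusted p = 0.1951). Pfkl averaged 489 ± 89.3 CPM in refed and 376 ± 89 CPM in fasted mice (0.41 ± 0.13, adjusted p = 0.1899), and Tpi1 195 ± 20.3 CPM and 157 ± 13.7 CPM (0.30 ± 0.10, adjusted p = 0.2048). Without fasted replicate 1 the log2 fold change of Pfkl was 0.51 (adjusted p = 0.05546). The lactate genes of the next step had the same sign. Ldha averaged 1207 ± 214 CPM in refed and 928 ± 193 CPM in fasted mice (0.37 ± 0.14, adjusted p = 0.2981), and Slc16a3 averaged 149 ± 54.4 CPM and 81.9 ± 46 CPM (0.90 ± 0.27, adjusted p = 0.1698). At the entry to mitochondria, the kinase Pdk1 averaged 58.3 ± 24.2 CPM in refed and 91.6 ± 25 CPM in fasted mice (−0.71 ± 0.25, adjusted p = 0.2614). Pdhb, the beta subunit of the first PDH enzyme, averaged 94.6 ± 8.34 CPM in refed and 129 ± 20.9 CPM in fasted mice (−0.45 ± 0.11, adjusted p = 0.07816), and Pdha1 had medians of 125.5 CPM and 112.8 CPM (0.29 ± 0.13, adjusted p = 0.4281). The subunits of that enzyme thus had fold changes of opposite sign, neither of them called by edgeR. Several of these calls depended on the tool. The adjusted p of Pdhb was 0.005709 with DESeq2 and 0.02569 with limma voom, that of Pfkl was 0.03965 with voom and that of Hk2 was 0.02182 with edgeR without a count filter. Slc16a3 passed with DESeq2 (adjusted p = 0.03507), without a count filter (adjusted p = 6.911e-05), and without fasted replicate 1 (adjusted p = 0.04836 with edgeR). The summed level of the 12 enzymes was 2739 ± 180 RPKM in refed and 2394 ± 385 RPKM in fasted mice, and 2260 ± 61.2 RPKM in fasted mice without replicate 1. As a share of the summed RPKM of the 3 transporters, Slc2a1 made up 9.11 ± 2.95% in refed and 3.01 ± 1.31% in fasted mice. Slc2a6 remained the main transcript of these 3, and glucose uptake was not measured. Summed peritoneal macrophage markers had a median of 25099 CPM in refed and 26722 CPM in fasted libraries, and monocyte markers of 330 and 234 CPM; their part in these results was not tested.

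**Figure D4:**
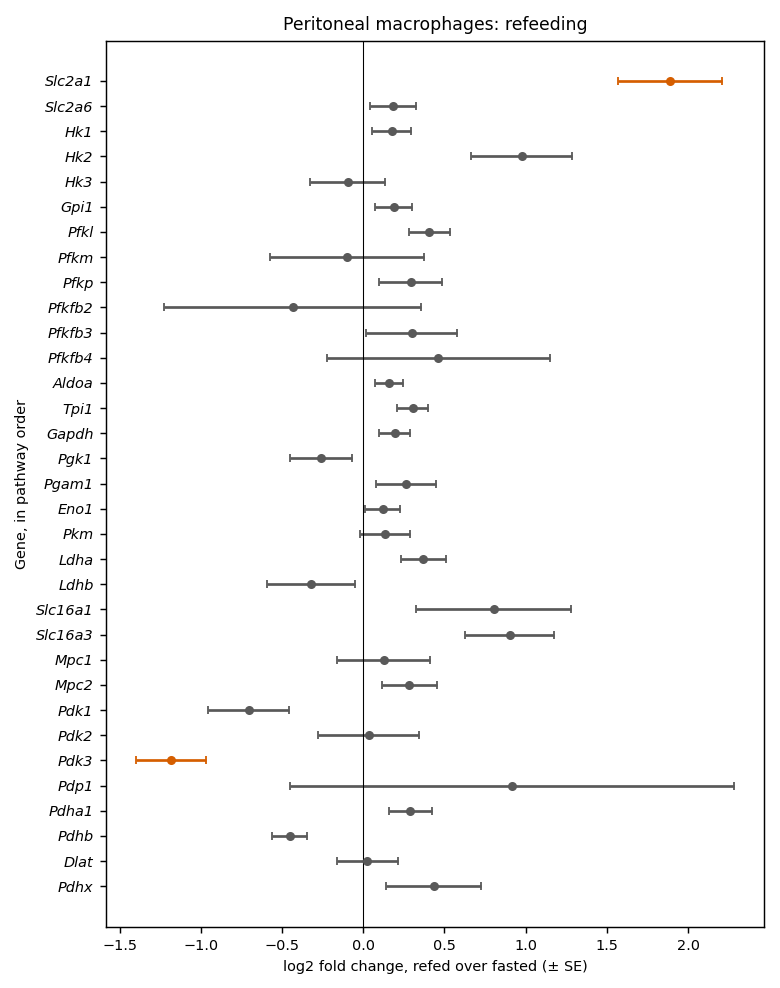
Log2 fold change (refed over fasted, ± SE) of the 33 tested genes in peritoneal macrophages, in pathway order, with the called genes in orange. Slc2a1 (1.89) and Pdk3 (−1.18) are the 2 called genes, and 25 of the 33 values are above 0.

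In the other 6 populations none of the genes was called by edgeR's quasi-likelihood test, and neither was any gene of the table (0% of the tested genes in each). At an unadjusted p below 0.05, members numbered 2 in adipose tissue macrophages, 1 in monocytes, 0 in microglia, 2 in colonic macrophages, 1 in islet macrophages and 1 in Kupffer cells, out of 30 to 35 tested. These were 5.88%, 3.03%, 0%, 5.71%, 3.03% and 2.94% of the members, against 5.16%, 2.65%, 2.59%, 2.59%, 2.42% and 3.27% of all genes, so apart from the colonic macrophages the shares were near or below those of all genes. DESeq2 called 0.989%, 0.0666%, 0.402%, 0.304%, 0.477% and 0.636% of the genes, among them 1 member in colonic macrophages (Pfkfb2) and 0 members in the others. The log2 fold change of Slc2a1 was above 0 in all 7 populations, which may share mice and so may not be separate observations. It averaged 54.3 ± 10.7 CPM in refed and 35.2 ± 20.1 CPM in fasted monocytes (0.70 ± 0.36), 95.3 ± 41.6 CPM and 64.6 ± 38.2 CPM in microglia (0.75 ± 0.53), and 64 ± 37 CPM and 39 ± 9.7 CPM in Kupffer cells (0.66 ± 0.37). In colonic macrophages it averaged 123 ± 67.6 CPM in refed and 90.8 ± 34.9 CPM in fasted mice (0.40 ± 0.25), in islet macrophages 141 ± 104.8 CPM and 103.9 ± 71 CPM (0.62 ± 0.56), and in adipose tissue macrophages 10.9 ± 7.53 CPM and 10.4 ± 7.68 CPM (0.30 ± 1.17). In each of these 6 populations the refed and fasted libraries overlapped. The sign in adipose tissue macrophages changed to −0.30 with the replicate number as a block. Pdk3 had a fold change below 0 in 5 of the 7 populations and above 0 in 2. It averaged 43.3 ± 16.4 CPM in refed and 60.5 ± 24 CPM in fasted colonic macrophages (−0.52 ± 0.32) and 22.5 ± 16.3 CPM and 14.2 ± 13.5 CPM in Kupffer cells (0.55 ± 1.03). A direct test of whether the refeeding effect differed among the 7 populations called 5 of 18640 genes (0.0268%) and 0 of the members. The unadjusted p was 0.456 for Slc2a1, 0.7795 for Pdk3 and 0.000609 for Pfkp, the smallest of the members (adjusted p = 0.2712), so the peritoneal responses of Slc2a1 and Pdk3 are not shown to differ from those of the other populations.

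The members with an unadjusted p below 0.05 in these 6 populations were Ldha and Slc16a3, each in a pair of populations, and Slc2a6, Slc2a3 and Pfkfb2 in 1 each. Ldha averaged 652 ± 138 CPM in refed and 467 ± 43.6 CPM in fasted Kupffer cells (0.46 ± 0.16, adjusted p = 0.9996) and 357 ± 99 CPM and 269 ± 61.8 CPM in adipose tissue macrophages (0.38 ± 0.18, adjusted p = 0.957). Slc16a3 averaged 44.9 ± 27.6 CPM in refed and 19.3 ± 17 CPM in fasted adipose tissue macrophages (2.08 ± 0.80, adjusted p = 0.8601), and 37.3 ± 26 CPM and 63.8 ± 29 CPM in islet macrophages (−0.87 ± 0.36, adjusted p = 1). Slc2a6 averaged 212 ± 47.9 CPM in refed and 158 ± 51.3 CPM in fasted monocytes (0.42 ± 0.19, adjusted p = 0.9999). Slc2a3 averaged 62.4 ± 45.8 CPM in refed and 136 ± 90.4 CPM in fasted colonic macrophages (−1.15 ± 0.48, adjusted p = 0.9997). Pfkfb2, which ran from 0.739 to 11.7 CPM in refed colonic macrophages, had a median of 0 CPM in fasted ones. These values are descriptions, since none passed the adjusted test. In the colonic libraries they stood beside a median B and plasma cell marker sum of 24410 CPM in refed and 7288 CPM in fasted mice, whose part was not tested. Endothelial markers had a median of 1521 CPM in refed and 2668 CPM in fasted Kupffer libraries, and refed Kupffer replicate 1 had 9021 CPM of Kupffer markers where the other refed libraries had 23610 to 33420 CPM. Fibroblast and mesothelial markers had a median of 201.3 CPM in refed and 79.95 CPM in fasted adipose libraries. The part of these in the Kupffer and adipose values was not tested.

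**Figure D5:**
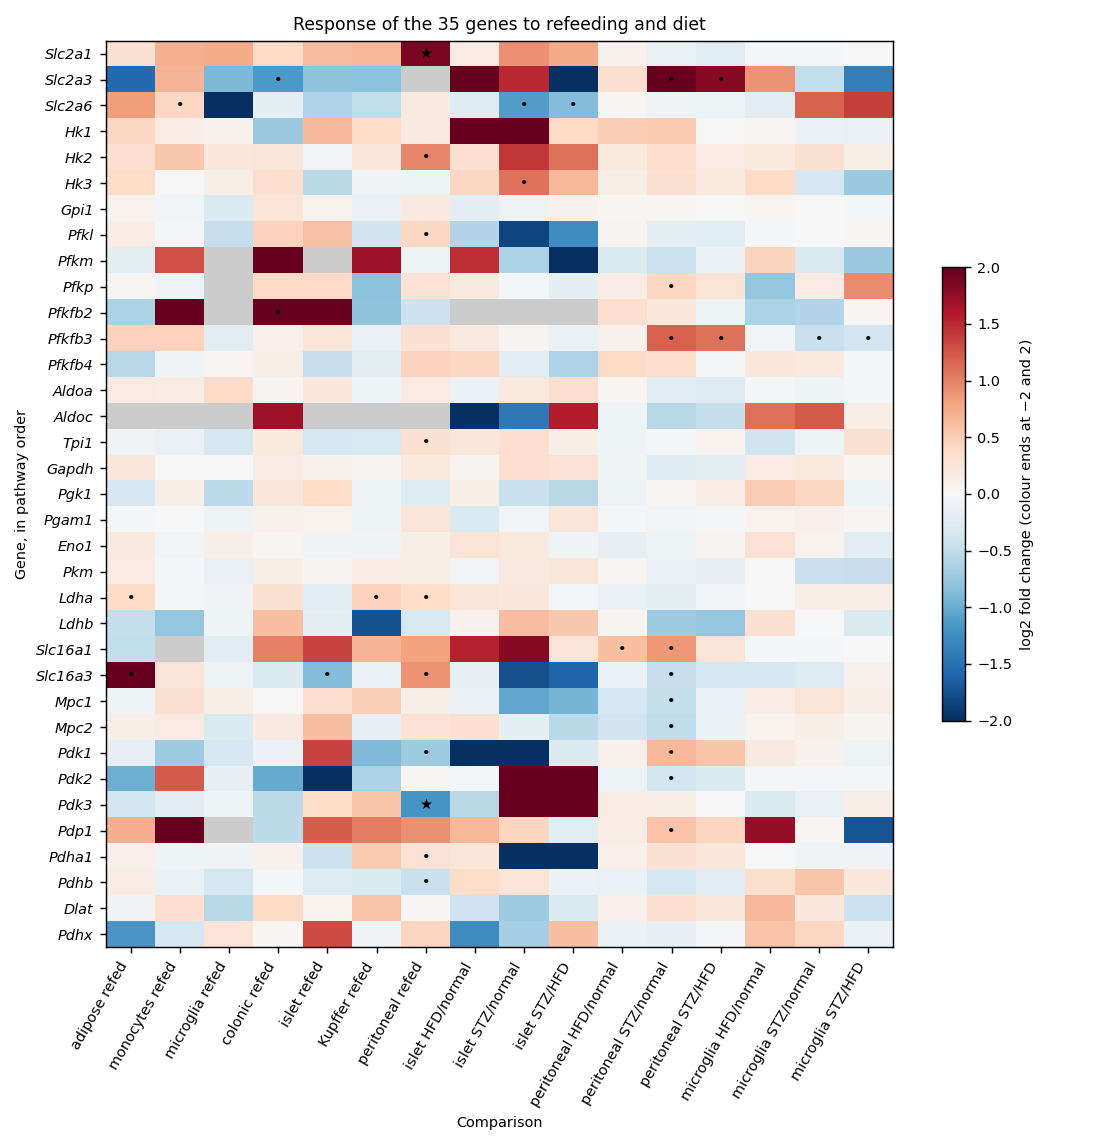
Log2 fold changes of the 35 genes (rows, in pathway order) in the 16 refeeding and diet comparisons (columns), on a colour scale from −2 to 2. A star marks an adjusted p below 0.05, a dot an unadjusted p below 0.05 and grey a gene not tested; the 2 stars are Slc2a1 and Pdk3 in refed over fasted peritoneal macrophages.

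Long-term diet was compared in islet macrophages, peritoneal macrophages and microglia, each with 3 comparisons that share samples: high-fat diet with STZ against normal diet, high-fat diet with STZ against high-fat diet, and high-fat diet against normal diet. By edgeR's quasi-likelihood test 0 of the 35 genes were called in any of the 9. In 8 of them 0% of all genes were called, with 300 to 1069 genes at an unadjusted p below 0.05. High-fat diet with STZ against normal diet in peritoneal macrophages had calls: 171 of 13225 genes (1.29%), 88 higher (0.665%) and 83 lower (0.628%). There 10 of the 35 members had an unadjusted p below 0.05, where 19.6% of all genes did, and 16 of the 35 log2 fold changes were positive (45.7%, against 49.2% of all genes).

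In peritoneal macrophages the smallest p in that comparison belonged to Pfkfb3 and the lactate carrier Slc16a1. Pfkfb3 had 37, 53.3, 62.2, 59 and 48.5 CPM in mice on high-fat diet with STZ, 30.7, 33.6, 29 and 17 CPM on high-fat diet alone, and 26.8, 48.6, 6.7, 18.2 and 28.1 CPM on normal diet. The libraries with STZ overlapped those on normal diet and lay above all those on high-fat diet, as the 1 member (2.86%) that did not overlap there, where 5.84% of all genes did not. The log2 fold change was 1.19 ± 0.36 against normal diet (adjusted p = 0.1184) and 1.10 ± 0.39 against high-fat diet (adjusted p = 0.4306). Slc16a1 had 18.5, 37.5, 19.5, 21.9 and 25.5 CPM with high-fat diet and STZ, 23.6, 20.3, 23.6 and 25.9 CPM on high-fat diet alone, and 16.8, 11.2, 5.36, 17 and 21.6 CPM on normal diet. Its log2 fold change against normal diet was 0.86 ± 0.26 (adjusted p = 0.1184), and the groups overlapped. With DESeq2, Pfkfb3 and Slc16a1 passed (adjusted p = 0.01017 and 0.02444), as 950 of all genes did, and Slc16a1 also without a count filter (adjusted p = 0.009371). Pfkp had 106.3, 118.3, 118.8, 101.1 and 110.3 CPM with high-fat diet and STZ, against 90.2, 87.8, 70.2, 85.8 and 82.7 CPM on normal diet. It was the 1 member of 35 (2.86%) whose groups did not overlap in this comparison, against 4.33% of all genes (0.41 ± 0.14, adjusted p = 0.153). Slc16a3, the other lactate carrier, averaged 60.6 ± 10.7 CPM with high-fat diet and STZ and 83.8 ± 18.2 CPM on normal diet (−0.46 ± 0.16, adjusted p = 0.1671), opposite in sign to Slc16a1, and passed with voom (adjusted p = 0.03586). Pdk1 averaged 97.2 ± 19.6 CPM with high-fat diet and STZ and 65.9 ± 26.9 CPM on normal diet (0.65 ± 0.29, adjusted p = 0.2483), and the pyruvate carrier Mpc2 averaged 40.4 ± 6.78 CPM and 61.2 ± 27.3 CPM (−0.51 ± 0.21, adjusted p = 0.2125). Normal-diet replicate 3 carried part of these values: without it the log2 fold changes were 0.76 for Pfkfb3 (adjusted p = 0.1606), 0.64 for Slc16a1 (0.1804), 0.24 for Pdk1 (0.2949) and −0.23 for Mpc2 (0.296), and 0.34 for Pfkp (0.09179). Slc2a1 and Pdk3, which changed with refeeding, had unadjusted p above 0.05 in all 9 diet comparisons. The summed level of the 12 enzymes was 2774 ± 285 RPKM with high-fat diet and STZ, 2751 ± 73.6 RPKM with high-fat diet and 3187 ± 1206 RPKM on normal diet, or 2658 ± 261 RPKM without normal-diet replicate 3. Summed peritoneal markers had a median of 15961 CPM with high-fat diet and STZ and 21873 CPM on normal diet, monocyte markers 393 and 232 CPM, and markers shared with adipose tissue macrophages 5423 and 2931 CPM, with all markers of each list detected in both groups; their part was not tested.

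In islet macrophages and microglia the diet values were descriptions. Slc2a1 had 152, 148 and 111.9 CPM in islet macrophages of mice on high-fat diet with STZ, 114.9, 141, 27.1 and 89.5 CPM on high-fat diet alone, and 94.6, 71.1, 89.9 and 57.7 CPM on normal diet. The libraries with STZ lay above those on normal diet (0.91 ± 0.45, adjusted p = 0.8678), and those on high-fat diet alone overlapped both. Islet endocrine markers, all 6 with counts, summed to medians of 2411, 4380 and 3026 CPM in these 3 groups, and their part was not tested. The libraries with STZ ran from 1759 to 3537 CPM of these markers and overlapped those on normal diet, at 1876 to 6092 CPM. Marker RNA in sorted macrophage libraries does not measure the number of islet cells. It therefore cannot decide on the loss of islet cells that the design text describes. Hk2 had 71.1, 36.8 and 51.3 CPM with high-fat diet and STZ, against 27.7, 8.18, 9.82 and 35 CPM on normal diet (1.43 ± 0.78, adjusted p = 0.881). Slc2a1, Hk2 and Pdha1 were the 3 of 34 members (8.82%) whose groups did not overlap here, near the 6.58% of all genes. Slc2a6 had 133, 75.7 and 69.4 CPM with high-fat diet and STZ, against 85.6, 309, 197 and 152 CPM on normal diet (−1.11 ± 0.30, adjusted p = 0.7359). The median log2 fold change of all genes in this comparison was −0.153, and that of the members 0.121. In microglia Pfkfb3 averaged 201 ± 52.6 CPM with high-fat diet and STZ and 259 ± 33.5 CPM on normal diet (−0.45 ± 0.17, adjusted p = 1), the opposite sign to peritoneal macrophages. The test of whether the effect of high-fat diet with STZ against normal diet differed among the 3 populations called 130 of 17230 genes (0.754%) and 0 members, and gave Pfkfb3 an adjusted p of 0.1799.

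Genes around the pathway were counted from 5 lists. In the 7 refeeding comparisons 0 genes of any list were called, out of 33 other glucose and fructose transporters and isoforms, 8 pentose phosphate genes, 12 glycogen genes, 18 genes of HIF1 and its targets outside glycolysis and 11 genes of glucose sensing and MYC. In peritoneal macrophages 18, 8, 11, 15 and 10 of these were tested, with median log2 fold changes of −0.24, −0.087, −0.10, 0.13 and −0.048. Pdk4, the fasting-induced PDH kinase, averaged 8.15 ± 18.7 CPM in refed and 38.5 ± 11.1 CPM in fasted peritoneal macrophages (adjusted p = 0.1199), with 1 refed library at 54.2 CPM, above the highest fasted one at 51.1 CPM. In adipose tissue macrophages Pdk4 averaged 38.8 ± 37.4 CPM in refed and 123 ± 47.2 CPM in fasted mice (adjusted p = 0.9495), and in monocytes, microglia and islet macrophages it had too few counts to be tested. Txnip, a transcript known to follow glucose, averaged 543 ± 132 CPM in refed and 645 ± 95.9 CPM in fasted peritoneal macrophages (adjusted p = 0.5672). Hif1a, the hypoxia-inducible factor, averaged 203 ± 53.6 CPM in refed and 174 ± 18.5 CPM in fasted mice (adjusted p = 0.7276), and Dld, the PDH component shared with other complexes, averaged 67.5 ± 25.9 CPM and 64.9 ± 24.7 CPM. In the diet comparisons 1 gene of the lists was called, which was 1 of the 22 tested genes of its list, in the comparison where 1.29% of all genes were called: Minpp1, an inositol phosphatase, averaged 61.2 ± 6.06 CPM in peritoneal macrophages with high-fat diet and STZ and 38.8 ± 6.42 CPM on normal diet (0.67 ± 0.14, adjusted p = 0.0435).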

How the data were processed

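Cells were sorted by FACS and their polyadenylated RNA was sequenced after Smart-seq2 amplification, per the labels' protocols. The deposited values are raw counts of reads per Ensembl gene made by the authors. The submitters' processing notes name Trimmomatic 0.36, STAR 2.5.1a, featureCounts and mm10; the annotation release and the treatment of strand and of reads with several matches are not stated there or in the labels. Symbols were taken from GENCODE M21; identifiers without a symbol held 0.0438% of the counts.

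Each comparison was fitted to the whole count table with edgeR 4.0.16 (R 4.3.3; filterByExpr, TMM scaling, robust quasi-likelihood F test, cohort as a factor), and Benjamini-Hochberg adjustment ran over all tested genes, with 0.05 as the threshold. Refeeding was fitted within each population, the 3 diet groups together within each population, and differences between populations in joint fits without a replicate term. The standard error (SE) was taken as the absolute log2 fold change over the square root of F. CPM used TMM library sizes, and RPKM the length of the APPRIS principal transcript. Microglia cohort 7 of the diet experiment holds 1 library, which then carries no information on diet. Near-identical copies were gene pairs with at least 95% identity over 50% of the transcript. Only the refeeding fit of peritoneal macrophages was tried on simulated counts, with known fold changes and no cohort effect. The level, diet and joint fits were not tested in this way. The libraries are labelled replicates, and where nothing says that they came from separate animals, p-values measure the spread between these libraries only. Alternatives were DESeq2 1.42.0, limma 3.58.1 voom with quality weights, median-ratio size factors, no count filter, replicate blocks, refed in place of fasted libraries and leaving out libraries. The 35 genes could all be named; of the other pathway lists, genes with an adjusted p below 0.05 (at most 6 per comparison) and Pdk4, Txnip, Hif1a and Dld. The members and lists were chosen with earlier results of these data known.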

Additional observations from a re-analysis of the deposited data

Results flagged for a closer look

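In 18 of 88 groups of 4 to 10 libraries, the highest library stood apart from the rest of its group. Fasted peritoneal replicate 1 accounted for 5 of these: the summed RPKM of the 12 enzymes was 3336 (next highest 2345), and RPKM was 158 for Pfkl (107.5), 829 for Gapdh (639), 937 for Eno1 (589.9) and 420 for Pkm (265). Normal-diet peritoneal replicate 3 had a summed RPKM of 5306 (next highest 3010). A chance rate of about 1 group in 20 holds only for independent groups of normally distributed values. Several of these groups share libraries, and the summed RPKM contains the single enzymes. Whether the values are normally distributed was not tested. The 18 groups therefore cannot be compared with that rate.

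In other fasted peritoneal libraries, Slc2a3 was at 0.179 RPKM in replicate 3 and Pfkfb4 at 13.3 RPKM in replicate 2. Pdk3 was at 31.6 CPM in refed peritoneal replicate 7 (next highest 21.4) and at 74.6 CPM in fasted peritoneal replicate 6 (next highest 53.1). The refed library is the one nearest to the fasted libraries, and the fasted library the one farthest from the refed ones; the groups did not overlap.

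Fasted microglia replicate 1 was at 67.5 RPKM for Gpi1, 16.8 RPKM for Pfkp, 31.9 RPKM for Pgk1 and 342 RPKM for Ldha, and fasted microglia replicate 4 at 34.4 RPKM for Pgam1. These 5 genes were called lower in microglia with those libraries included. Fasted adipose tissue macrophage replicate 2 had a summed RPKM of 1836 (next highest 1114) and 293 RPKM for Gapdh, and replicate 5 had 19.6 RPKM for Hk2.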

How the results depend on the processing

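In refed over fasted peritoneal macrophages, where Slc2a1 and Pdk3 were called, DESeq2 called 4 members, edgeR without a count filter 4 and voom 4, each time including both; Pdhb was added by DESeq2 and voom, Slc16a3 by DESeq2 and the unfiltered fit, Hk2 by the unfiltered fit and Pfkl by voom. With the replicate number as a block in place of the cohort, 0 members were called: the log2 fold changes were 2.02 for Slc2a1 and −1.15 for Pdk3 (adjusted p = 0.1631 each). Correlations of same-numbered refed and fasted libraries ran from −0.0295 to 0.144 over the 7 populations. All of these pairs were also of the same cohort, so the correlations cannot decide whether the numbers pair the samples. Leaving out 1 of the 16 libraries, an alternative chosen after seeing the data, gave 0 to 3 members called and 0.184 to 2.43 times the 49 genes called in all, lowest without refed replicate 4 and highest without refed replicate 6; Slc2a1 was called in 15 of these 16 fits (log2 fold change 1.75 to 2.08) and Pdk3 in 8 (−1.30 to −1.06). All genes called numbered 338 with DESeq2, 312 without a filter, 184 with voom and 0 with the block.

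For high-fat diet with STZ against normal diet in peritoneal macrophages, where 0 members were called, DESeq2 called 2 (Pfkfb3 and Slc16a1), the unfiltered fit 1 (Slc16a1) and voom 1 (Slc16a3); all genes called were 950, 710 and 832, against 171, and 30 to 301 without 1 library. In refed over fasted colonic macrophages DESeq2 called 1 member (Pfkfb2) and 0.304% of all genes, and the unfiltered fit 1 member (Slc2a3) and 143 genes (1.21%). In the other 5 refeeding comparisons with 0 genes called, the unfiltered fit called 6 to 96 genes and voom 0 to 13. In islet macrophages DESeq2 called 223 genes for high-fat diet against normal diet, 594 for high-fat diet with STZ against normal diet and 374 for high-fat diet with STZ against high-fat diet. For high-fat diet with STZ against high-fat diet in peritoneal macrophages, DESeq2 called 202 genes, voom 340 and the fit with no replicate block 34. Without the 4 refed libraries whose descriptions name fasting only, 0 genes were called in islet macrophages and Kupffer cells.

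Of the 63 level calls in fasted mice, refed libraries reversed Aldoc in adipose tissue macrophages (1.75) and microglia (−5.28), a gene with most libraries near 0, and gave 6 members called in Kupffer cells. The level calls numbered 63 with median-ratio factors, 67 without a filter, 71 in refed libraries and 62 without fasted peritoneal replicate 1. For these alternatives the level calls of all genes were not counted. In the edgeR fit without a filter the calls of Pgk1, Pgam1 and Mpc1 in microglia ended (adjusted p = 0.2363, 0.2421 and 0.5654). So did those of Pgam1 in monocytes, Gapdh in adipose tissue macrophages and Hk2 in colonic macrophages. Pfkl and Eno1 in islet macrophages and Aldoa in Kupffer cells lost their calls there too. With median-ratio factors the call of Pgk1 in microglia ended (adjusted p = 0.0576). Pfkl in microglia and Pdk1 in peritoneal macrophages were not called in refed libraries (adjusted p = 0.1659 and 0.2182). Of fold changes that were not called, Slc2a1 in adipose tissue macrophages was −0.30 with the block and Pdk3 in islet macrophages −0.029 with voom. The cause of these changes was not tested. Aldoc, Pfkm, Pfkfb2 and Pdp1 averaged at most 6.76 RPKM in fasted mice, with libraries at 0, so a difference in them was less detectable at this depth.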
